A study of Mus musculus with 6 samples.

Results

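Cathepsins are the main proteases of the lysosome, and cystatin C is a secreted inhibitor of their cysteine-dependent members. The genes described are Ctsa, Ctsb, Ctsc, Ctsd, Ctsh, Ctsk, Ctsl, Ctss, Ctsz and Cst3 (the gene of cystatin C), taken by symbol as 10 of the 33456 genes in the count matrices. Cells of mouse visceral (epididymal) fat were sorted as positive for CD45 (found on white blood cells) and CD11b (found mainly on myeloid cells), and their RNA was sequenced cell by cell. The 3 control samples and the 3 HFD (high-fat diet) samples differ by diet in the labels, which give for both groups only the diet, the tissue and the sort, and name no strain, age or length of feeding, though the series title speaks of long-term obesity. Since separate animals are not named, the spread behind each p-value is that of the 3 samples of a diet and could be technical.

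The same cell barcodes stood in several samples. Of 2195 distinct barcodes, 1113 were listed in 1 sample and 1082 (49.3%) in more than 1. Each barcode was counted only in the sample where it had most unique molecular identifiers (UMIs, one per captured RNA molecule), which left 986 control and 1128 HFD cells, 260 to 453 per sample. Summed UMIs per sample ran from 1997647 to 3874349 in control and from 3587086 to 5708323 in HFD. Levels are given as CPM, a gene's UMIs scaled to a total of 1000000 UMIs over the summed cells. Values from barcodes listed in a single sample, and from the matrices as deposited, stand beside the results they change.

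Lysosomal proteases are made as inactive precursors, sorted to the lysosome largely through mannose 6-phosphate receptors, and activated in its acid interior. Ctsd is an aspartic protease and Ctsa a serine carboxypeptidase. Ctsb, Ctsl, Ctsk, Ctss, Ctsc, Ctsh and Ctsz are cysteine proteases, the group that cystatin C blocks, mostly outside the cell. In fat of obese mice, macrophages that take up lipid and carry Trem2 and Gpnmb are known for a high lysosomal content, and they are called lipid-associated below.

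Promoter sequences of 4 genes are shown because the genes behind them differed most in where they were found: Ctsd, Ctsl and Ctsk were high in lipid-associated cells and Ctsc was low there. Each line gives the 250 bases before the RefSeq transcription start in GRCm38.p6, 5′ to 3′ on the gene's strand, and capitals mark a match to a motif. Ctsd lies on the minus strand (chr7:142387828-142388077), Ctsl on the minus strand (chr13:64370521-64370770), Ctsk on the plus strand (chr3:95498960-95499209) and Ctsc on the plus strand (chr7:88277835-88278084).
Ctsd: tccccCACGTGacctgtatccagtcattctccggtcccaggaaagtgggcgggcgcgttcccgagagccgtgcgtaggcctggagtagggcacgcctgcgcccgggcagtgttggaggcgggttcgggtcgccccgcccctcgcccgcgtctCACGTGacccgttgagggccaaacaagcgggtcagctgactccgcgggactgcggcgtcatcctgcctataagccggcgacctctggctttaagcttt
Ctsl: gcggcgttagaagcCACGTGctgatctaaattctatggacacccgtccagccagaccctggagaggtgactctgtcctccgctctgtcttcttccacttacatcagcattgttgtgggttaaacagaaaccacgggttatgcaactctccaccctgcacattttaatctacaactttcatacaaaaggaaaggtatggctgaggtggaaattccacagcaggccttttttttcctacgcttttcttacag
Ctsk: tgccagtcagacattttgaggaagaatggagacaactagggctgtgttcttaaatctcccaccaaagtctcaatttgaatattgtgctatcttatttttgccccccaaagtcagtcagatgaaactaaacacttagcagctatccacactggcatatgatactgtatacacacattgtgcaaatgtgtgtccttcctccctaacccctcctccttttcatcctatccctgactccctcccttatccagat
Ctsc: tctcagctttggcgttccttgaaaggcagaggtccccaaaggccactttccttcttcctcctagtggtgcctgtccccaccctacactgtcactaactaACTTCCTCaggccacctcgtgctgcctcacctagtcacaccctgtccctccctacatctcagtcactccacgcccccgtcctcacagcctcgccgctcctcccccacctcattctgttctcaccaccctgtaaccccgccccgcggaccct
The E-box CACGTG, the core recognised by the lysosomal transcription factors of the MiT/TFE family, was found 2 times before Ctsd, with the last base of the match 240 and 93 bases before the start, and 1 time before Ctsl, 231 bases before it. One of the 2 listed starts of Ctsa also had it, 7 bases before the start. Both strands were searched, and 6.02% of all 32851 windows of this length held the motif. GAGGAAGT, a form of the site of the myeloid factor PU.1, stood before Ctsc on the other strand (capitals ACTTCCTC, 144 bases before the start), and 2.44% of all windows held it. The AP-1 motif TGACTCA or TGAGTCA was in 4.46% of all windows and in none of the 9 windows of these genes. The RefSeq table matched 8 of the 10 genes, and Ctsb and Ctsh are named only. These matches are descriptions of the letters in the windows. Ctsk and Ctss are neighbours on chromosome 3.

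Cells were clustered with the cathepsin and cystatin genes left out, and clusters were named from marker genes. Macrophage-like cells made up 407 control and 690 HFD cells. Among them, 2 clusters of 390 cells were lipid-associated macrophage-like, with 1, 13 and 33 cells in control and 156, 95 and 92 in HFD, and only 12 of the 47 control cells and 114 of the 343 HFD cells had barcodes listed in a single sample. Gpnmb stood at 2186 CPM against 235 CPM in macrophage-like cells outside these clusters, and Trem2 at 1802 CPM against 577 CPM. Both genes were among the markers that gave the name, so these levels describe the clusters and do not check the name. Fibroblast-like cells, which a CD45 sort should not hold, numbered 24 in control and 207 in HFD. The summed level of all 8 fibroblast markers over all cells was 317 to 1096 CPM in control and 3087 to 4134 CPM in HFD, while in macrophage-like cells outside the lipid-associated clusters it was 56.0 to 184 CPM in control and 281 to 309 CPM in HFD.

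The first comparison asked how the sorted cells as a whole differed with diet. All 10 genes passed the test in whole-sample sums: Ctsk, Ctsd, Ctsl, Ctsb, Ctsz, Ctsa and Ctss were higher in HFD, and Ctsc, Ctsh and Cst3 were lower. In all 10 the CPM of the diets did not overlap, as in 61.0% of the 4823 genes with a mean of at least 20 CPM. The test called 32.4% of the 10450 genes tested, 15.2% higher and 17.2% lower, so the call itself was common. The median log2 fold change of the 10 genes was 0.65, against -0.02 over all genes tested. In such sums fewer cells of a type and less RNA per cell cannot be told apart.

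Ctsd, the aspartic protease that degrades proteins in the lysosome and activates other cathepsins, stood at 771, 806 and 1455 CPM in control samples 1, 2 and 3 and at 3819, 3450 and 2980 CPM in the HFD samples. Every HFD sample was well above every control sample, and control 3 was the highest of the controls. The means were 1011 ± 385 and 3416 ± 420 CPM (SD, n = 3 each), and the log2 fold change was 1.62 ± 0.22 SE (edgeR adjusted p = 0.000823). Ctsa, the carboxypeptidase that also shields beta-galactosidase and the neuraminidase Neu1, had 328, 363 and 413 CPM in control and 592, 599 and 548 CPM in HFD. The groups did not overlap, and the log2 fold change was 0.52 ± 0.09 SE (edgeR adjusted p = 0.00341). With barcodes of a single sample alone it was 0.35 and not called (adjusted p = 0.0581).

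Among the cysteine proteases with broad protein-degrading activity, Ctsb had 2086, 2123 and 3657 CPM in control and 7320, 6911 and 6315 CPM in HFD. Ctsl, an endopeptidase of lysosomes and endosomes, had 293, 346 and 1028 CPM in control and 1723, 1437 and 1359 CPM in HFD. Control 3 was the highest control sample for both, and for Ctsl it stood far above the other two. The log2 fold changes were 1.25 ± 0.19 SE for Ctsb (edgeR adjusted p = 0.0014) and 1.31 ± 0.39 SE for Ctsl (edgeR adjusted p = 0.0322). The Ctsl call was lost with DESeq2 (adjusted p = 0.0914) and in edgeR on leaving out control 1 (adjusted p = 0.0679), control 2 (0.1), HFD 1 (0.0978), HFD 2 (0.076) or HFD 3 (0.0604).

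Ctsk, the collagen-degrading protease known from bone-resorbing osteoclasts, had the largest rise of the 10 genes. It stood at 14.7, 58.6 and 93.2 CPM in control and at 675, 379 and 587 CPM in HFD, a log2 fold change of 3.20 ± 0.51 SE (edgeR adjusted p = 0.00186). The lowest HFD sample was above the highest control sample by a wide margin, and the spread within each diet was also wide. Ctsk and Ctsl were high in fibroblast-like cells as well, whose markers moved with diet as given above. Fibroblast-like cells held 13.8% of the control and 16.2% of the HFD Ctsk UMIs, and 4.81% of the control and 9.67% of the HFD Ctsl UMIs. Their part in the whole-sample differences was not tested.

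Ctss, which trims the invariant chain of MHC class II in antigen-presenting cells, rose from 1673, 1742 and 2287 CPM in control to 3172, 2873 and 2892 CPM in HFD. Ctsz, a carboxypeptidase also called cathepsin X, had 630.0, 566 and 693 CPM in control and 1268, 1145 and 1170 CPM in HFD. For both the groups were apart and the HFD samples lay close together. The log2 fold change was 0.51 ± 0.11 SE for Ctss (edgeR adjusted p = 0.00857) and 0.78 ± 0.09 SE for Ctsz (edgeR adjusted p = 0.000527).

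The aminopeptidases went the other way. Ctsc, the dipeptidyl peptidase that activates granule serine proteases, fell from 681, 606 and 661 CPM in control to 444, 462 and 491 CPM in HFD, a log2 fold change of -0.62 ± 0.09 SE (edgeR adjusted p = 0.00127). Ctsh, an aminopeptidase, had 746, 647 and 641 CPM in control and 549, 563 and 541 CPM in HFD, a log2 fold change of -0.44 ± 0.10 SE (edgeR adjusted p = 0.0082). Neither pair of groups overlapped, but with barcodes of a single sample alone Ctsh was not called (log2 fold change -0.22, adjusted p = 0.25). Cst3, the inhibitor, also fell, from 4931, 3991 and 4417 CPM in control to 3345, 3322 and 3365 CPM in HFD. The 3 HFD samples differed from each other by little, and the log2 fold change was -0.55 ± 0.10 SE (edgeR adjusted p = 0.00295).

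**Figure D1:**
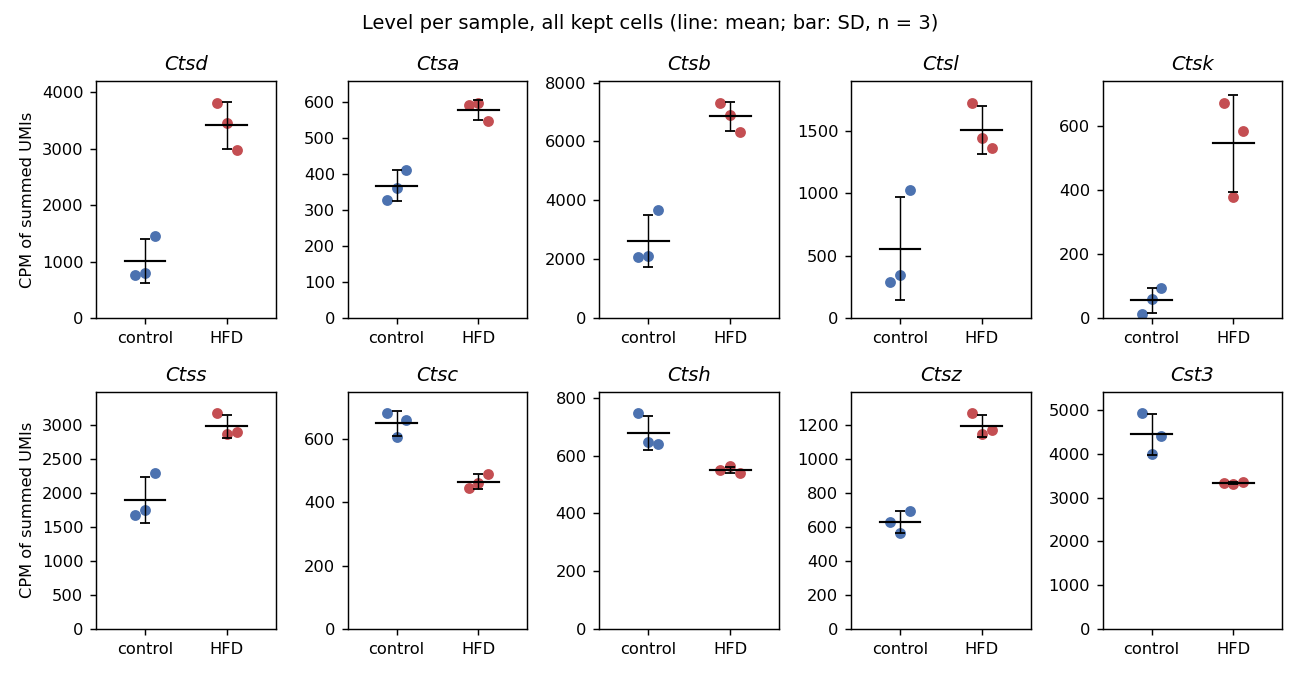
Level of each gene in CPM (vertical axis, from 0) in the 3 control and 3 HFD samples, all kept cells summed; points are samples, lines are means and bars are SD. For all 10 genes, and for 61.0% of the 4823 genes with a mean of at least 20 CPM, the points of the 2 diets do not overlap, with Ctsc, Ctsh and Cst3 lower in HFD and the other 7 higher.

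With the matrices as deposited, where a barcode counts in every sample that lists it, all 10 genes were called in the same directions with smaller differences. The log2 fold change was then 1.42 for Ctsk, 0.84 for Ctsd, 0.64 for Ctsb, 0.60 for Ctsl, 0.39 for Ctsz and 0.22 for Ctss. With barcodes of a single sample alone it was 4.77 for Ctsk, 1.26 for Ctsd, 0.72 for Ctsb and 0.88 for Ctsl.

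The next comparison kept to macrophage-like cells, to separate diet from the mix of macrophage-like and other cells. The mix of macrophage-like clusters still differed with diet. Lipid-associated cells numbered 47 in control and 343 in HFD, and resident macrophage-like cells 297 and 42. Diet and this mix cannot be told apart in these sums. Of the 10 genes, 7 passed the test there, against 18.1% of 8734 genes tested. Ctsd (log2 fold change 1.35), Ctsb (0.84), Ctsz (0.82) and Ctss (0.57) were higher in HFD, where 7.42% of genes were higher. Cst3 (-0.75), Ctsc (-0.84) and Ctsh (-0.54) were lower, as were 10.6% of genes. Ctsk (2.33, edgeR adjusted p = 0.0689), Ctsl (0.69, 0.293) and Ctsa (0.34, 0.0613) did not pass. Of 18 alternatives, 9 called Ctsa (0.26 to 0.46), 6 called Ctsk (0.88 to 5.69) and 3 called Ctsl (0.61 to 1.59).

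As a ratio of highest to lowest sample, Ctsl and Ctsk spread more over the control samples in these sums. In CPM the SD of Ctsk was larger in HFD (224, against 96.1 in control). Ctsl in macrophage-like cells ran from 461 to 1931 CPM over the 3 control samples and from 1507 to 2080 CPM over the HFD samples, and it was the only one of the 10 genes whose groups overlapped, where 48.2% of 4684 genes did not overlap. Ctsk ran from 3.86 to 186 CPM in control and from 339 to 780.1 CPM in HFD. The control samples also differed in lipid-associated cells, with 1, 13 and 33 cells. Without control 3 all 10 genes were called, and without control 2 or without HFD 1 only 4 were. Several single calls here depended on the samples and settings used: Ctss, with an adjusted p of 0.043, had 0.211 with the matrices as deposited, and 0.0843, 0.139, 0.136, 0.102 and 0.089 without control 1, control 2, HFD 1, HFD 2 and HFD 3. Ctsh had 0.0798 with barcodes of a single sample alone, and 0.0519, 0.0876, 0.0578 and 0.0621 without control 2, HFD 1, HFD 2 and HFD 3. The Ctsb call was lost without control 2 (0.056) or HFD 1 (0.0571). With the replicate number as a block Ctss (0.0648) and Ctsh (0.0626) were not called.

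Macrophage-like cells outside the lipid-associated clusters were then compared by diet, a comparison added after the data were seen. Here 7 of the 10 genes passed, against 12.6% of 7583 genes tested (5.41% higher, 7.20% lower). Ctsk, Ctsd, Ctss, Ctsz, Ctsb and Ctsl were higher in HFD and Cst3 was lower. The lipid-associated markers moved with them in these same cells: all 12 had UMIs in every sample, and their summed level was 3002 to 4777 CPM in control and 10610 to 12090 CPM in HFD. Their part in the diet differences was not tested. In 8 of the 10 genes the diets did not overlap, against 36.9% of 4714 genes. Different clusters held these cells in the 2 diets: in control 297 of 360 cells were resident macrophage-like, led by Cd209f, Lyve1 and Ccl12, and in HFD 294 of 347 were in clusters led by Fabp4 and Gdf15 or by Cxcl9. The diet difference and the difference between those clusters cannot be told apart in these sums.

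Outside the lipid-associated clusters Ctsk stood at 3.90, 19.2 and 36.0 CPM in control and at 161, 134 and 151 CPM in HFD (log2 fold change 3.14 ± 0.41 SE, edgeR adjusted p = 0.000457). Ctsk was thus low in every control sample, resting on 6, 11 and 24 UMIs. The Ctsk value was 1.32 as deposited and 5.18 with barcodes of a single sample alone, both called, and the call was lost with coarser clusters (resolution 0.5, log2 fold change 1.58, adjusted p = 0.174). Ctsd had 1094, 927 and 1131 CPM in control and 2527, 2666 and 2079 CPM in HFD (log2 fold change 1.13 ± 0.12 SE, edgeR adjusted p = 0.000155), with groups far apart. Cst3 had 5656, 5689 and 6212 CPM in control and 3691, 3683 and 3583 CPM in HFD (log2 fold change -0.75 ± 0.08 SE, edgeR adjusted p = 0.000178), again without overlap. As deposited and with barcodes of a single sample alone the values were 0.70 and 1.63 for Ctsd and -0.65 and -0.91 for Cst3, all called.

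Ctss rose from a mean of 1710 ± 102 to 3053 ± 281 CPM (SD, n = 3 each), Ctsz from 530.3 ± 126 to 974 ± 58.4 CPM and Ctsb from 3765 ± 395 to 6107 ± 195 CPM. For Ctsl the means were 493 ± 91.9 and 766 ± 15.2 CPM, a log2 fold change of 0.57 ± 0.13 SE (edgeR adjusted p = 0.013). That call was lost with the matrices as deposited (adjusted p = 0.375), with barcodes of a single sample alone (0.369), with coarser clusters (0.28) and without HFD 1 (0.0617). Ctsa (log2 fold change 0.10, edgeR adjusted p = 0.611), Ctsc (-0.42, 0.0641) and Ctsh (-0.25, 0.144) did not pass, though Ctsc was called under 6 of 18 alternatives (-0.58 to -0.37) and Ctsh under 1 (-0.32, as deposited).

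**Figure D2:**
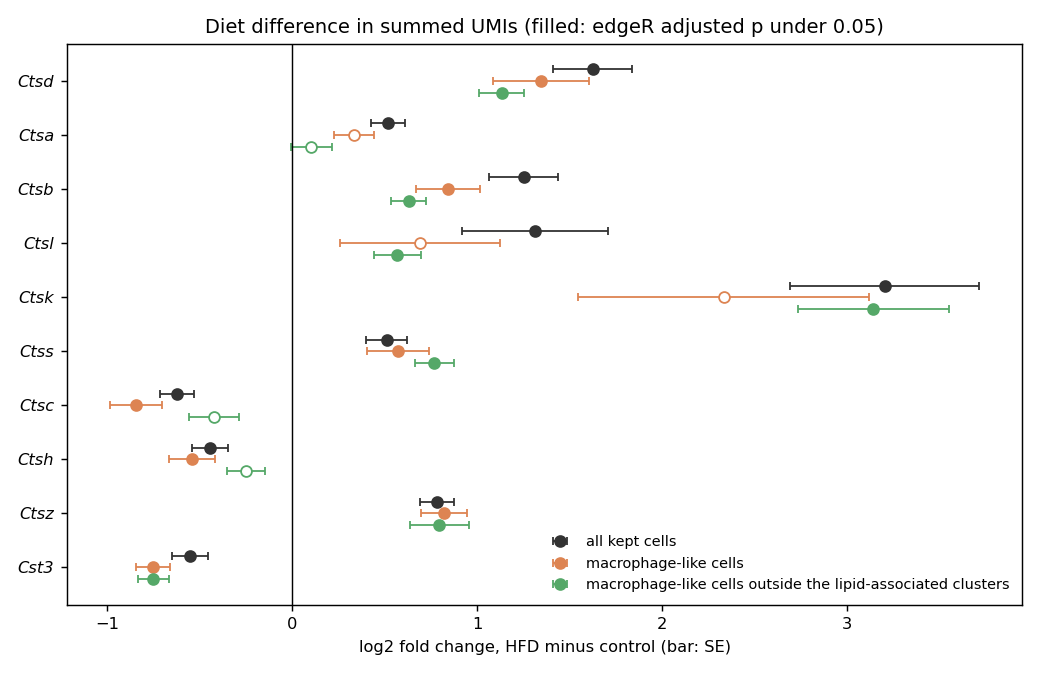
Log2 fold change of each gene, HFD minus control (horizontal axis), in all kept cells, in macrophage-like cells and in macrophage-like cells outside the lipid-associated clusters; bars are SE and filled points have an edgeR adjusted p under 0.05. Ctsd, Ctsb, Ctss, Ctsz and Cst3 are filled in all 3 sets of cells, and Ctsa and Ctsh lie nearest to 0 outside the lipid-associated clusters.

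Within resident macrophage-like cells the HFD samples held only 14, 12 and 16 cells, too few for the test. Ctsk was at 2.95, 8.47 and 10.8 CPM in control and at 118, 59.4 and 119 CPM in HFD in these cells, Ctss at 1580, 1431 and 1469 CPM and at 2181, 2044 and 2427 CPM, and Cst3 at 6601, 7460 and 6733 CPM and at 5668, 5351 and 5440 CPM. Of the 10 genes, 6 were higher in every HFD sample (Ctsb, Ctsd, Ctsk, Ctsl, Ctss and Ctsz), Cst3 was lower, and Ctsa, Ctsc and Ctsh overlapped, while 20.3% of 4771 genes did not overlap. The Ctsk values rest on 8 to 18 UMIs per HFD sample. In monocyte-like cells, with 2 samples per diet that had enough cells, edgeR called none of the 9 genes tested and 1 of 2244 genes (0.0446%), with 203 genes at an unadjusted p under 0.05 and 2 genes called by DESeq2.

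The question of which cathepsins mark lipid-associated cells was asked within each sample, as the ratio of their level to that in all other macrophage-like cells. Control 3 and the 3 HFD samples had at least 20 cells of each kind. Clusters were drawn from the same cells, so the ratios are descriptions with no test. The share of all genes with 1 direction in every sample is not given. Higher in lipid-associated cells in 4 of 4 samples were Ctsk (median log2 ratio 2.82, a 7.09-fold step), Ctsl (1.76), Ctsd (1.35), Ctsz (0.85), Ctsb (0.77), Ctsa (0.51) and Ctss (0.50). Lower in 4 of 4 samples were Ctsc (-1.69), Ctsh (-0.70) and Cst3 (-0.23).

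Ctsk, Ctsl and Ctsd therefore made the largest steps. The Ctsk log2 ratio was 3.43 in control 3 and 2.79, 1.92 and 2.85 in HFD samples 1, 2 and 3. For Ctsl it was 2.64 in control 3 and 1.84, 1.46 and 1.67 in HFD, and for Ctsd 1.92 in control 3 and 1.28, 1.12 and 1.42 in HFD. Control 3 had the largest step for Ctsk, Ctsl, Ctsd, Ctsz, Ctsb and Ctss, and the most negative one for Ctsc and Cst3. Set against the macrophage-like clusters led by Fabp4 or Cxcl9 alone, in the 3 HFD samples, the median ratios were nearly as large, at 2.76 for Ctsk, 1.75 for Ctsl and 1.24 for Ctsd. Ctsk and Ctsd were also among the 10 leading genes of lipid-associated cluster 3. They took no part in the clustering, but this ranking comes from the same cells and is no separate support.

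The steps of Ctsk, Ctsl and Ctsd were smaller with barcodes of a single sample alone, where the cells were clustered and named anew. Only the 3 HFD samples then had enough cells, and 4 of the 7 genes stayed higher in every sample. The parts of the barcodes, the new clusters and the fewer cells in this change were not tested. The median log2 ratio was then 0.94 for Ctsk, 1.09 for Ctsl, 0.92 for Ctsd and 0.60 for Ctsb, and -0.88 for Ctsc. With coarser clusters the Ctsk median was 2.17, and 6 genes were higher in every sample.

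**Figure D3:**
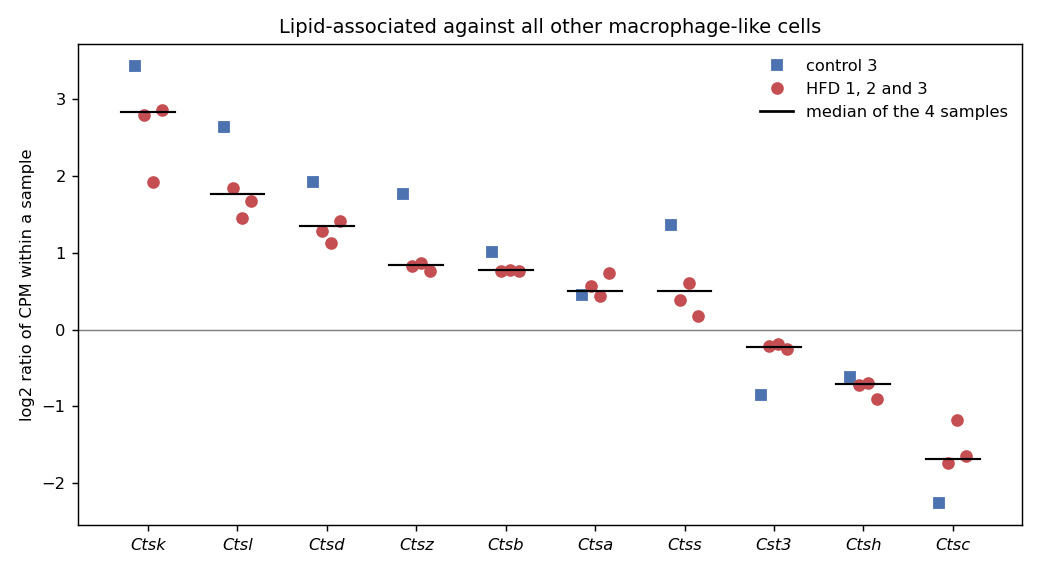
Log2 ratio of CPM in lipid-associated macrophage-like cells to CPM in all other macrophage-like cells of the same sample (vertical axis); the square is control 3, circles are HFD 1, 2 and 3, and lines are medians of the 4. Ctsk, Ctsl and Ctsd lie highest, with medians of 2.82, 1.76 and 1.35, and Ctsc lowest, at -1.69.

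In the HFD samples lipid-associated cells had 1120, 506 and 1091 CPM of Ctsk, 6131, 5802 and 5545 CPM of Ctsd and 2793, 2108 and 2394 CPM of Ctsl. The Ctsk level in HFD 2 was far below the other two, while Ctsd varied little. Ctsb was at 10630, 10620 and 9984 CPM and Ctsz at 1761, 1659 and 1719 CPM. Ctsc stood at 275, 347 and 267 CPM in these cells, against 915, 786 and 834 CPM in the other macrophage-like cells of the same samples.

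The 2 lipid-associated clusters, one led by Gpnmb and Mmp12 (cluster 3) and one by Spp1 (cluster 5), were compared in the HFD samples. All genes but Ctsl were higher in cluster 3 in each of the 3 samples: Ctsk was higher there by a median log2 ratio of 0.61 (0.47 to 0.70), Ctsc by 0.47 (0.26 to 0.49), Ctsd by 0.44 (0.14 to 0.49) and Ctsb by 0.40 (0.33 to 0.40). For Ctsl the ratio ran from -0.31 to 0.60, so no direction held over the 3 samples.

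With each barcode counted in 1 sample, lipid-associated cells were a small part of control samples but held a large part of some cathepsin UMIs. They were 4.77% of control cells with 7.19% of control UMIs, and they held 66.0% of control Ctsk UMIs, 44.3% of Ctsl, 29.0% of Ctsd and 21.9% of Ctsb, against 2.71% of Ctsc and 5.27% of Cst3. Control 3 carried most of these control shares: over control 1 and control 2 alone, lipid-associated cells were 2.16% of cells and held 51.7% of Ctsk, 7.68% of Ctsd and 5.34% of Ctsb UMIs and 201 of 1827 Ctsl UMIs, and the 1 such cell of control 1 had no Ctsk UMI. In HFD they were 30.4% of cells with 40.0% of UMIs and held 68.2% of Ctsd, 67.4% of Ctsk, 65.6% of Ctsl and 60.6% of Ctsb UMIs. Their share was 25.01% for Ctsc, 30.5% for Ctsh and 37.5% for Cst3, below their share of all UMIs. With the matrices as deposited and clustered anew, 161, 239 and 217 of 913, 1184 and 1117 control barcode entries were lipid-associated. In HFD the counts were 206, 176 and 149 of 768, 689 and 731 entries. The small part in control thus depended on the barcode choice.

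Cell by cell, Ctsk was patchy in lipid-associated cells and Ctsd nearly universal. After thinning every cell to 2000 UMIs, which left out 2 lipid-associated cells and 12 other macrophage-like cells, 36.3% of lipid-associated cells had a Ctsk UMI (141 of 388 cells, exact 95% interval 31.5 to 41.3, counting error only) and 98.7% a Ctsd UMI. In macrophage-like cells outside these clusters the shares were 11.8% and 84.7%. Without thinning the Ctsk shares were 60.0% and 29.0%, at median depths of 13932 and 8332 UMIs. Ctsl was seen in 84.3% and 63.5% of thinned cells, and Ctsc in 37.9% and 78.7%.

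T cell-like cells, which should lack Ctsk, were used to read its share against free RNA or mixed droplets. Of these 52 cells (median depth 4187 UMIs), 3.85% had a Ctsk UMI after thinning. Their shares were 69.2% for Ctsd, 32.7% for Ctsc and 23.1% for Ctsl. Lymphocytes also express lysosomal proteases and cytotoxic ones Ctsc, so these shares do not measure background. Without thinning, the macrophage marker C1qa had a UMI in 71.2% of T cell-like cells (798 CPM) and in 78.4% of fibroblast-like cells. The lipid-associated marker Gpnmb had one in 34.6% of T cell-like cells (116 CPM). The part of free RNA or mixed droplets in the cathepsin shares of T cell-like cells was not tested. For Ctsk outside the lipid-associated clusters the thinned share was 3.74% in control (13 of 348 cells) and 19.9% in HFD (69 of 347 cells, 15.8 to 24.5%). By sample the HFD share ran from 12.8% in HFD 2 to 24.4% in HFD 1. The pooled HFD share was above that of cDC2-like cells (5.66%, 1.18 to 15.7%), but the share of HFD 2 lay within that interval. The pooled share was within the interval of the 22 HFD T cell-like cells (1.12 to 29.2%). These intervals are over cells pooled from the samples and leave out the spread between samples. Expression of Ctsk outside the lipid-associated clusters was thus not separated from background by this measure.

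Some of the genes were also higher in every HFD sample in cDC2-like cells, described here without a test because the HFD samples held 18, 16 and 19 of them. Ctsd was at 156, 159 and 264 CPM in these cells in control and at 1099, 988 and 884 CPM in HFD. Ctsb was at 618, 502 and 1078 CPM in control and at 3575, 2421 and 2233 CPM in HFD. Ctsb, Ctsd, Ctsk, Ctsl, Ctss and Ctsz did not overlap between the diets in these cells and the other 4 genes did, while 21.6% of 4195 genes did not overlap. The thinned share of cDC2-like cells with a Ctsd UMI was 28.6% in control and 75.5% in HFD, against 74.4% and 95.1% in macrophage-like cells outside the lipid-associated clusters. Whether free RNA from other cells had a part in the diet differences of Ctsd, Ctsb, Ctsl and Ctsk was not tested.

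Across single macrophage-like cells of a sample, thinned UMIs of the lipid-associated markers and of Ctsd had a Spearman correlation of 0.68, 0.55 and 0.66 in the HFD samples and of 0.19, 0.31 and 0.64 in control 1, 2 and 3. For Ctsb it was 0.60, 0.55 and 0.61 in HFD and 0.19, 0.09 and 0.47 in control. Ctsc had -0.46, -0.43 and -0.45 in HFD, -0.56 and -0.41 in control 2 and control 3, and 0.02 in control 1, which held 1 lipid-associated cell. These are descriptions over 85 to 287 cells that share a library.

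The diet contrast within lipid-associated cells could be run only with samples holding at least 10 of them, control 2 and 3 against the 3 HFD samples, a lower limit set after the data were seen. Ctsd alone of the 10 genes passed, against 2.45% of 7929 genes tested (0.731% higher, 1.72% lower), with 3090 and 4286 CPM in control and the HFD values above (log2 fold change 0.57 ± 0.14 SE, edgeR adjusted p = 0.0335). That call was lost with DESeq2 (adjusted p = 0.097), with the matrices as deposited (0.17), and in edgeR without control 2 (0.107), HFD 1 (0.156), HFD 2 (0.107) or HFD 3 (0.0662). Ctsk had 830.1 and 388 CPM in control and overlapped HFD (log2 fold change 0.66 ± 0.31 SE, edgeR adjusted p = 0.353). Ctsb (0.50, adjusted p = 0.108), Ctss (-0.28, 0.212) and Ctsl (-0.27, 0.65) did not pass either. The control side rests on 13 and 33 cells.

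A test of the interaction asked whether the step between lipid-associated and other macrophage-like cells differed with diet, in the same 5 samples with sample as a block. It called 7 of the 10 genes, against 2.66% of 8543 genes tested. The step was smaller in HFD for Ctsk (difference in log2 -1.73 ± 0.36 SE), Ctss (-1.05 ± 0.15), Ctsz (-0.94 ± 0.16), Ctsl (-0.70 ± 0.18) and Ctsd (-0.57 ± 0.15). Ctsc (0.86 ± 0.22) and Cst3 (0.71 ± 0.14), which were lower in lipid-associated cells, differed in the opposite sense, and their fall was also smaller in HFD. Each of these genes but Ctsc had also passed the diet test outside the lipid-associated clusters. Both tests use the counts of those cells, so their calls are not independent. Ctsa (0.13), Ctsb (-0.06) and Ctsh (-0.05) did not pass (edgeR adjusted p of 0.83, 0.919 and 0.948). Ctss and Ctsz were called under every alternative run, and Cst3 under all but the matrices as deposited (adjusted p = 0.12). Ctsk was not called without control 2 (0.365) or as deposited (0.0812), Ctsd not without control 3 (0.373), HFD 1 (0.153), HFD 2 (0.133) or HFD 3 (0.0514), and Ctsl not without control 3 (0.684), HFD 1 (0.0968), HFD 2 (0.1) or HFD 3 (0.123), as deposited (0.13), or with the 10 genes kept among the clustering genes (0.167). Ctsc was not called on leaving out any one of the 5 samples, with an adjusted p of 0.0511 to 0.15, or as deposited (0.316), where Ctsb was called (0.0485).

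Over all cell classes, the genes fell into groups that shared a place and groups that did not. Values are log2 of the class level over the level in all kept cells, with diets pooled and the lipid-associated class almost wholly from HFD. Ctsk was above the all-cell level in lipid-associated (1.30), fibroblast-like (1.13) and the 37 cycling-like cells (0.93), and below it in the other 11 classes. Ctsl was above it in the same 3 classes, at 1.17, 0.26 and 0.69. Ctsd was highest in lipid-associated cells (1.18), next to 0.04 in cycling-like cells, and below the all-cell level elsewhere. Ctsb (0.96) and Ctsa (0.65) were highest there and near the all-cell level in other macrophage-like cells (0.18 and 0.06).

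Ctss was shared by the named myeloid classes, between -0.65 in resident macrophage-like and 0.66 in lipid-associated cells, and lowest in fibroblast-like cells (-3.46). Ctsc was highest in resident macrophage-like cells (1.28), then monocyte-like (0.72) and other macrophage-like cells (0.61), and low in fibroblast-like cells (-2.75). Ctsh was highest in migratory dendritic cell-like (0.97) and resident macrophage-like cells (0.59). Cst3 followed the same order, with 1.37 in migratory dendritic cell-like, 0.79 in resident macrophage-like and 0.46 in cDC2-like cells, the class of type 2 conventional dendritic cells.

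**Figure D4:**
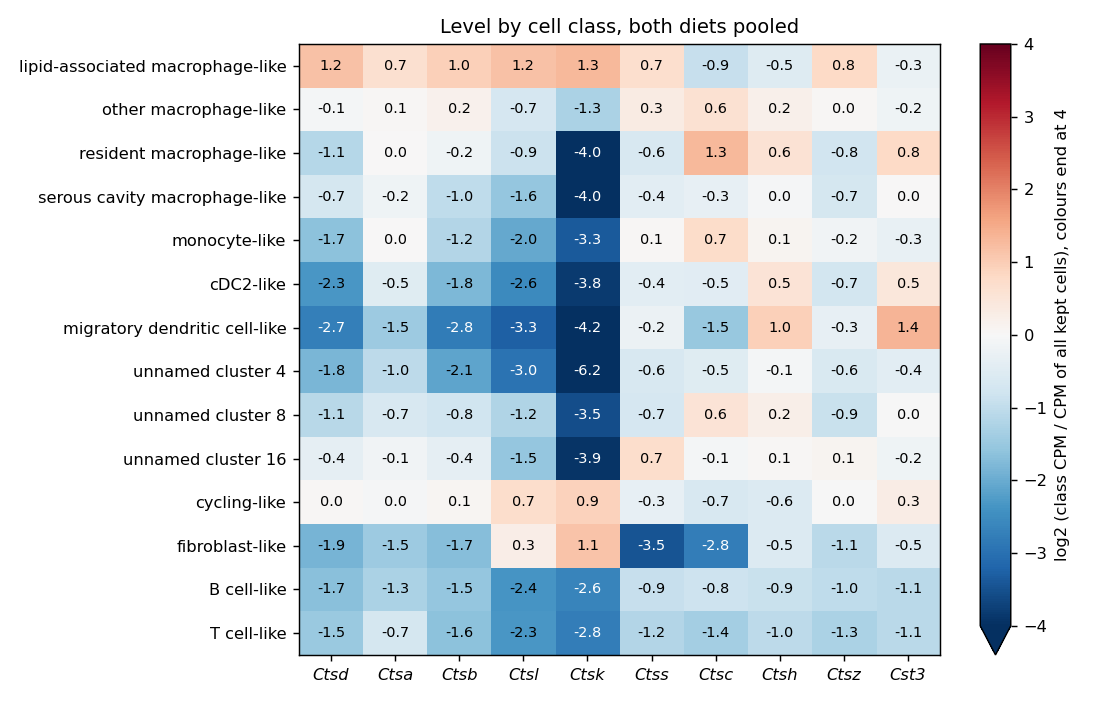
Log2 of the level in each cell class over the level in all kept cells, diets pooled; columns are the genes, rows the classes, and the colour scale ends at 4 in either direction. Ctsk is above the all-cell level in lipid-associated (1.30), fibroblast-like (1.13) and cycling-like cells (0.93) and below it in the other 11 rows, whereas Ctss is lowest in fibroblast-like cells (-3.46).

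Fibroblast-like cells of the HFD samples had 878, 1034 and 743 CPM of Ctsk, within the range of the lipid-associated cells. The lipid-associated to fibroblast-like log2 ratio had a median of 0.35 for Ctsk (-1.03 to 0.55), 0.74 for Ctsl and 0.01 for Ctsh. It was 4.16 for Ctss, 2.88 for Ctsd, 2.66 for Ctsb and 2.41 for Ctsc. Ctsk thus did not set these 2 classes apart in every sample, and Ctss did. In lipid-associated cells the summed fibroblast markers were 66.7 to 289 CPM against 29450 to 33280 CPM in fibroblast-like cells of HFD.

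Over 27 sums of one class in one sample, the genes most alike among the 10 were Ctsb and Ctsd (Pearson 0.92) and Ctsk and Ctsl (0.89), followed by Ctsa and Ctss (0.81) and Ctsh and Cst3 (0.75). Ctsh and Ctsk were the least alike (-0.63). Sums of a sample share its library, so these are descriptions. Among 4869 other genes, Ctsb was most like Ftl1 (0.97), Hexa (0.96) and Atp6v1a (0.95), Ctsd like Pld3 (0.92), Ctsl like Cd63 (0.93), Ctsk like Anpep (0.93), Ctsz like Gusb (0.90) and Ctsa like Cd68 (0.94). Ctss was most like Myo1f (0.95) and Tyrobp (0.94), Ctsc like Clec4a1 (0.94), Ctsh like Tmem176a (0.85) and Cst3 like Cd163 (0.77).

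Protease and inhibitor transcripts were set side by side as UMIs of the 9 cathepsins per UMI of Cst3, a ratio of detected molecules used only to compare samples. The 9 include Ctsd and Ctsa, which are not cysteine proteases, so the ratio is no balance of cystatin C with its targets. Over all cells the control samples had 1.47, 1.82 and 2.47 and the HFD samples had 5.85, 5.36 and 5.02. Every HFD sample was above every control sample. Outside the lipid-associated clusters macrophage-like cells had 1.75, 1.61 and 1.73 in control and 4.34, 4.21 and 4.24 in HFD. Lipid-associated cells had 7.11 in control 3 and 8.84, 8.21 and 8.58 in HFD. cDC2-like cells of control, with 0.847, 1.19 and 0.763, had the lowest ratios of the classes with at least 20 cells in a sample.

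**Figure D5:**
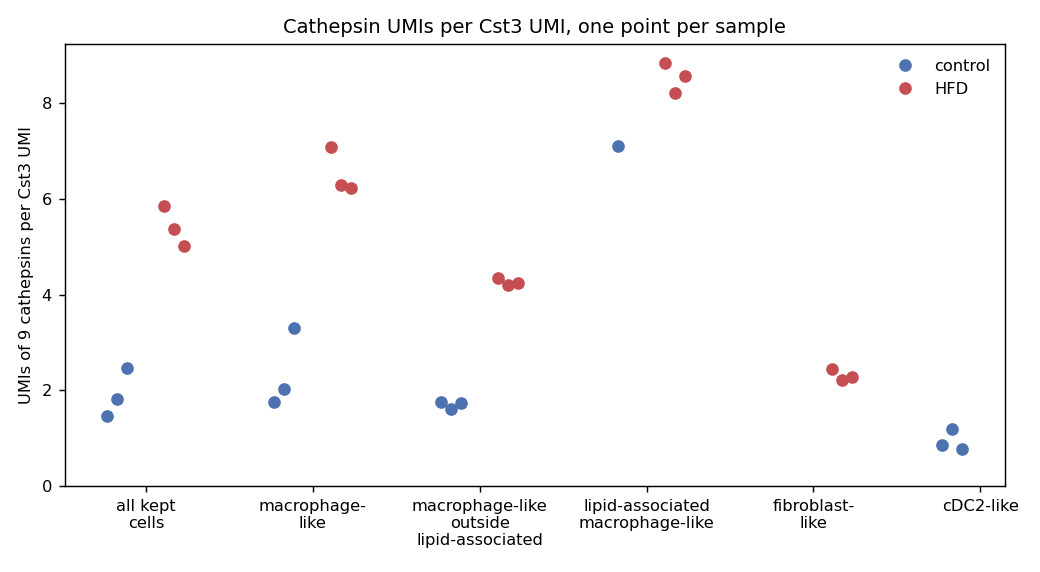
UMIs of the 9 cathepsins per Cst3 UMI (vertical axis) in each sample, by cell class, for samples with at least 20 cells of the class. Control samples lie between 1.47 and 2.47 over all cells and HFD samples between 5.02 and 5.85, and lipid-associated cells lie highest.

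The lists of other pathway genes were counted in the same sums. Of 14 further cathepsins and legumain, 4 could be tested in whole-sample sums and 2 were higher in HFD, where 15.2% of all genes were: Lgmn, the asparagine-specific protease legumain, with means of 844 ± 181 CPM (control) and 1480 ± 140 CPM (HFD; SD, n = 3 each; log2 fold change 0.67, edgeR adjusted p = 0.006), and Ctsf (0.71, adjusted p = 0.0213), whose call was lost without control 2 (0.0642), control 3 (0.0555) or HFD 2 (0.0692). Neither passed in macrophage-like cells, with or without the lipid-associated clusters. The list's median log2 fold change was 0.53 against -0.02 for all genes. With barcodes of a single sample alone the Lgmn value was 0.25 and not called (adjusted p = 0.211).

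Among 17 protease inhibitors, 6 were tested in whole-sample sums, 2 were higher and 1 was lower, against 15.2% and 17.2% of all genes, with a list median of -0.05. Cstb, the intracellular inhibitor stefin B, had 723 ± 144 CPM in control and 1410 ± 120 CPM in HFD (SD, n = 3 each; log2 fold change 0.83, edgeR adjusted p = 0.0018), and thus went the opposite way to Cst3. It was also higher outside the lipid-associated clusters (0.76, adjusted p = 0.00148). Serpinb1a, an inhibitor of granule serine proteases, was lower in whole-sample sums (-1.57, adjusted p = 0.00226, but -0.57 and 0.191 with barcodes of a single sample alone), and Serpinb6a was higher (0.90, adjusted p = 0.00278).

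Of 15 genes for sorting and activation, 6 were higher in whole-sample sums, against 15.2% of all genes, and none was lower: Lamp1, Lamp2, Gga2, Gnptab, Gnptg and Igf2r. The list median was 0.42. Igf2r, the large mannose 6-phosphate receptor, had the largest difference, with 16.0 ± 8.48 CPM in control and 44.0 ± 4.74 CPM in HFD (SD, n = 3 each; log2 fold change 1.35, edgeR adjusted p = 0.00675), and it passed in macrophage-like cells too (1.48, adjusted p = 0.0339). The whole-sample call was lost with barcodes of a single sample alone (0.89, adjusted p = 0.087), and that in macrophage-like cells without control 2 (0.104), HFD 1 (0.112), HFD 2 (0.0838) or HFD 3 (0.0719). Psap, the precursor of the saposins, passed outside the lipid-associated clusters (0.44, adjusted p = 0.0237), and not without control 1 (0.0838), control 2 (0.0633), HFD 1 (0.101) or HFD 3 (0.0707). Of the 4 transcription factors of the MiT/TFE family, Mitf alone was higher in whole-sample sums (0.78, adjusted p = 0.00512, but 0.285 with barcodes of a single sample alone), and none passed in macrophage-like cells.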

How the data were processed

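Per the labels' protocols, visceral fat was digested with collagenase, red cells were lysed and CD45+ CD11b+ cells were sorted. The authors deposited 1 matrix per sample of raw UMI counts with barcodes and gene symbols. Cell Ranger, Seurat 2.4 and the build mm9 are named, without a role, per the submitters' processing notes. The sources used here do not say how barcodes were called. The genes and lists described were chosen with earlier results of these data known.

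Each of 2195 barcodes was kept in the sample where it had most UMIs, and cells needed at least 200 genes and at most 10% mitochondrial UMIs, leaving 2114 cells. No doublet caller was run. Clusters came from scanpy 1.11.5 (2000 variable genes without the cathepsin and cystatin genes, 30 principal components, 20 neighbours, leidenalg 0.10.2, resolution 1.0, 17 clusters) and took the ending "-like" from marker lists, with naming thresholds set after the data were seen. Unnamed clusters stayed unnamed.

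UMIs were summed per sample over all cells, and per class where a sample had at least 20 cells (10 for the lipid-associated diet test and the class difference). Sums were tested with edgeR 4.0.16 under R 4.3.3 (quasi-likelihood, TMM, filterByExpr, HFD minus control, Benjamini-Hochberg over all genes tested, threshold 0.05). SDs are over samples, and intervals of shares are exact binomial ones at 95%. On simulated whole-sample sums of 10213 genes, with 100 genes changed at each fold, the fit recovered 94% of 2-fold and 100% of 4-fold changes. Of its calls there 8.92% were false. On macrophage-like sums of 8489 genes it recovered 84% and 100%, and 11.96% of calls were false. Both shares of false calls lay above the threshold of 0.05. Far fewer genes were changed than were called in the data, so these shares do not carry over to the real sums. All 10 genes are reported. Up to 8 genes of the pathway lists were named by smallest p or a mean of at least 20 CPM, and the genes most like a member by Pearson correlation of log2(CPM + 1). Alternatives covered barcodes, cell filters, clusters, scaling, low-count filter, DESeq2 1.42.0 and each left-out replicate. The macrophage-like sums outside the lipid-associated clusters, the monocyte-like sums and the limit of 10 cells were added after seeing the data. Replicate numbers were checked for pairing through the correlation of deviations from the diet means. Same-numbered control and HFD samples had -0.157, -0.069 and -0.121, and other pairs had -0.023 to 0.15. With 3 samples per diet these values cannot show whether the numbers pair samples, and the main tests treated samples as unpaired. Promoter windows are from RefSeq, GRCm38.p6. Gene positions of the build mm9 were not used here.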

Additional observations from a re-analysis of the deposited data

Results flagged for a closer look

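For 7 of the 10 genes the step between lipid-associated and other macrophage-like cells differed with diet in a test of the difference itself. The test (edgeR, 5 samples, sample as a block) called 2.66% of 8543 genes tested. Of the 7 calls only those of Ctss and Ctsz held under every alternative run, as given above. The differences, HFD minus control on the log2 scale, were -1.73 for Ctsk (adjusted p = 0.00319), -1.05 for Ctss (3.22e-05), -0.94 for Ctsz (0.000243), -0.70 for Ctsl (0.029) and -0.57 for Ctsd (0.0295), and 0.86 for Ctsc (0.0258) and 0.71 for Cst3 (0.00214). The control side rests on 13 and 33 lipid-associated cells of control 2 and control 3. Most macrophage-like cells outside the lipid-associated clusters were resident macrophage-like in control and of other clusters in HFD, and their part in these differences was not tested.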

How the results depend on the processing

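In whole-sample sums between 8 and 10 of the 10 genes were called under every alternative run, with all directions kept, and in macrophage-like sums outside the lipid-associated clusters between 6 and 8. Leaving out 1 sample gave 4 to 10 calls in macrophage-like sums, where the report has 7, and 520 to 2126 calls over all genes, where it has 1578. Lipid-associated sums had 1 call, and 2 as deposited, 0 with DESeq2, 2 with library size only, 3 with no filter on low counts and 0 to 2 without 1 sample. Monocyte-like sums had 0, and 2 as deposited, 2 with the 10 genes kept among the clustering genes and 0 to 2 without 1 sample. The class difference had 7, and 4 as deposited and 4 to 5 without 1 sample. With barcodes of a single sample alone 4 genes, not 7, were higher in lipid-associated cells in every sample. The cause of these changes was not tested.

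Signs turned only for differences that had not passed. In lipid-associated sums these were Ctsc (-0.10) and Ctsz (-0.05) as deposited, Cst3 with library size only (0.01), and, without control 3, Ctsh (0.09), Ctsl (0.57) and Cst3 (0.21), which without control 2 had -0.39, -0.72 and -0.24. In the class difference they were Ctsa as deposited (-0.01), Ctsb without control 3 (0.23), and Ctsh with the 10 genes kept (0.02), without control 3 (0.29) and without HFD 3 (0.01). Without control 2, Ctsb had -0.31 and Ctsh -0.22.

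With the replicate number as a block, all 10 genes were called over all cells, 5 in macrophage-like sums (762 genes in all, against 1578), 7 outside the lipid-associated clusters and 0 in lipid-associated sums.

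Scaling by library size alone moved the median over all genes from -0.02 to 0.13 and the split of whole-sample calls from 1593 higher and 1796 lower to 2322 and 1271. Genes called fell from 3389 of 10450 tested to 1940 of 6810 with barcodes of a single sample alone and to 2233 of 10690 without HFD 1. In macrophage-like sums they went from 1578 of 8734 tested to 1023 of 9317 as deposited and 869 of 3903 with barcodes of a single sample. Outside the lipid-associated clusters they went from 956 of 7583 to 605 of 3584 with those barcodes and 567 of 7583 with DESeq2. With barcodes of a single sample far fewer genes could be tested, so those counts are not lower shares in these 2 sets of sums. Clusters at resolutions 0.5 and 2.0 and barcodes of a single sample left too few control cells for the lipid-associated diet test.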
